A study of Mus musculus with 8 samples.

Results

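The comparison described here is that of whole lungs in which p52 had been switched on in the airway epithelium with lungs of wild-type (WT) mice, neither exposed to lipopolysaccharide (LPS). It rests on 4 of the 8 arrays of the study: 2 of CCSP-p52 mice on doxycycline (dox) and 2 of WT mice on dox, chosen by their labels and not by any measured value. All mice were of the FVB strain, 8 to 12 weeks old, and drank 2 g/L dox with 2% sucrose for 1 week, so that dox and sucrose were common to both genotypes. CCSP-p52 mice came from a cross of mice carrying a tet-operator FLAG-p52 transgene, with a CCSP-driven tetracycline-controlled silencer (CCSP-tTS), and homozygous CCSP-rtTA mice, from more than 1 founder line. CCSP, the club cell secretory protein, is made by airway secretory cells, so that its promoter drives the transgene in cells that are a minor part of the lung from which the RNA was taken. The WT mice were littermates negative on genotyping, and the sources do not say whether they carried the rtTA transgene. Each array held the RNA of 3 mice, and the labels give the sexes as evenly mixed in each group. A group was therefore 2 pools and 6 mice, and the errors are those between pools. The other 4 arrays, 2 pools per genotype taken 48 hours after intratracheal LPS, entered the estimate of the spread and serve as a comparison at the end.

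p52 is the DNA-binding part of p100, the product of Nfkb2, and is released when the non-canonical NF-κB pathway removes the inhibitory end of p100. It usually acts as a dimer with RelB and is best known for its part in lymphoid organs. Club cells line the small airways, where they secrete protective proteins and metabolise inhaled compounds, and they share the airway wall with ciliated cells and with rarer cells that move chloride and bicarbonate.

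The values are log2 levels from the Robust Multichip Average (RMA), so that a difference of 1 is a doubling. The medians of the 4 arrays lay between 7.51 and 7.54 over all probe sets. The 2 WT dox pools correlated at r = 0.9962 over the genes tested and the 2 CCSP-p52 dox pools at 0.9961, while the first WT pool and the first CCSP-p52 pool, of different genotypes, correlated at 0.9970. Pools of 1 genotype were thus not always more alike than pools of different genotypes. The LPS pools spread more widely (r within a group 0.985 and 0.980), and the second CCSP-p52 LPS pool was nearer to the pools without LPS (r 0.972 to 0.978) than were the other 3 (0.936 to 0.956). The comparison takes 1 spread over all 8 arrays.

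Nfkb2, the gene of which the transgene is a part, was measured first as a check on the labels. Its level was 9.51 and 9.58 in WT lungs and 10.20 and 10.33 in CCSP-p52 lungs, a difference (logFC) of 0.72 with a standard error (SE) of 0.23. The genotypes did not overlap, in the direction of the labels. Nfkb2 was also at 10.83 and 10.56 in WT LPS lungs, and the share of the transgene in the difference between the dox groups was not tested. Which part of the transcript the probes read was not given. The difference no longer reached the cut-off used here without the first WT pool (0.69), the second WT pool (0.75) or the second CCSP-p52 pool (0.65).

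Of 18820 genes, 107 (0.569%) were higher in CCSP-p52 lungs and 31 (0.165%) were lower at the cut-off used here, a logFC of at least 0.41 in size, the limit the study set for increases, with an unadjusted p of at most 0.05 from limma. None passed Benjamini-Hochberg adjustment (lowest adjusted p = 0.448 from limma, for Cyp4a12b), and 322 genes (1.71%) had an unadjusted p under 0.05. The median SE was 0.129 and the median logFC of all genes −0.0027. The pools of the genotypes did not overlap for many genes, 16.5% with CCSP-p52 above WT and 16.2% with CCSP-p52 below it, and 48.8% had a positive logFC. With the replicate number as a block, 128 genes (0.68%) were higher and 45 (0.239%) lower, and with the 4 arrays without LPS alone 150 (0.797%) and 79 (0.42%). With 2 pools a side, the smallest two-sided p of an exact permutation test is 0.333. Of the 107 higher genes 53, and of the 31 lower genes 4, belong to the cell cycle, NF-κB, heat shock, immediate early and histone genes. The remaining 54 higher and 27 lower genes are the subject here, and 27 of them were singled out by rule together with Nfkb2. Of these 28 genes, 10 stayed at the cut-off when each of the 4 pools was left out in turn, a fit that leaves 1 pool in a group and assumes that it varies like the others.

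**Figure D1:**
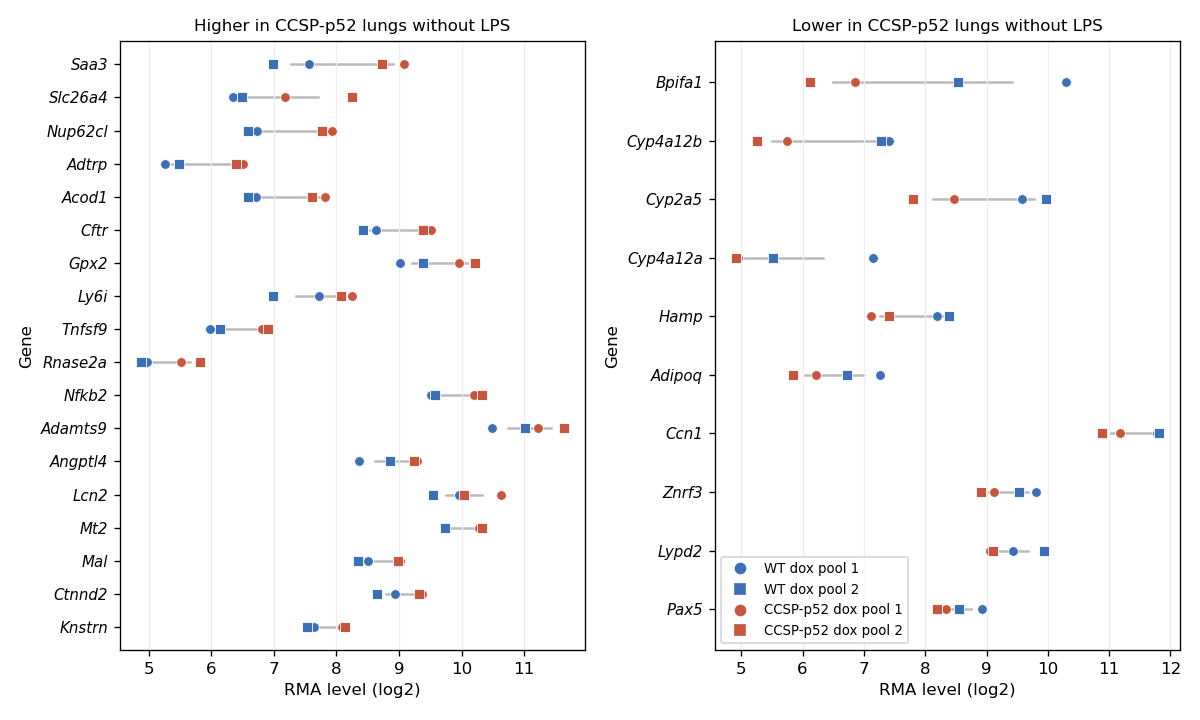
RMA level (log2, x axis) of the 18 genes singled out that were higher and the 10 that were lower in CCSP-p52 lungs without LPS, 1 row per gene. Circles are pool 1 and squares pool 2, blue for WT dox and red for CCSP-p52 dox, and the grey line joins the group means. In every row the genotypes are apart, as the rule required, but the distance between the pools of a genotype differs widely, from Mt2, where the pools lie close together, to Bpifa1.

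Since p52 binds DNA at κB sites, the 250 bases before each start of transcription in RefSeq (GRCm38.p6) were searched on both strands for 2 κB-like patterns of 10 bases, the first GGGA, then any 2 bases, then TTCC, and the second GGGGA, then any 2 bases, then CCC. Of all 32851 RefSeq promoters, 1.21% held the first, 1.41% the second and 2.61% either. Of the genes higher at the cut-off, 86 had a promoter in the table and 4 of these (4.65%) held a match, against 3.30% of the 14749 tested genes with a promoter and 0 of the 22 lower genes with one. The 4 were Nfkb2, Mal, Nup62cl and Ybx2. Of the 28 genes singled out, 21 had a promoter and 3 held a match. The promoters of Mal and Nup62cl are printed because they hold a match, and that of Saa3 because it is the largest increase among the genes followed here and holds none. Capitals mark the match, which lies 117 to 108 bases before the start in Mal (chr2:127656696-127656945, minus strand) and 199 to 190 bases before it in Nup62cl (chrX:140062569-140062818, minus strand). The window of Saa3 is chr7:46715677-46715926, minus strand. A match of letters is not a binding site, and the lack of one concerns only these 2 patterns in this window. Other forms of the κB site were not searched for, so the shares count only these patterns.
Mal: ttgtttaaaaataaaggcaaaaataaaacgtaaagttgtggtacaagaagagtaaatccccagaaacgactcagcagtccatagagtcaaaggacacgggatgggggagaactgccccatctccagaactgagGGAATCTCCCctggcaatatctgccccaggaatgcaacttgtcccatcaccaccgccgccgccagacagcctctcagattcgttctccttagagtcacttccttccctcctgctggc
Nup62cl: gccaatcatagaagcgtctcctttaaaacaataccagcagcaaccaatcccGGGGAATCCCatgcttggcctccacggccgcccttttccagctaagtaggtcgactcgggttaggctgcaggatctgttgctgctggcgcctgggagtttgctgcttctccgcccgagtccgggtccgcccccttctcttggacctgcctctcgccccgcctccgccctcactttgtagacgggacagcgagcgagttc
Saa3: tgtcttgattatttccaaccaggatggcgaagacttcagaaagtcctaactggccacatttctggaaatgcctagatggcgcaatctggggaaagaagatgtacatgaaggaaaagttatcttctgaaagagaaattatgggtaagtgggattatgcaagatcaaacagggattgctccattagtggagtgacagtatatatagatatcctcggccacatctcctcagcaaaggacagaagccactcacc

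Among genes of mucosal defence, Saa3 and Lcn2, both induced in acute phase responses, were higher in CCSP-p52 lungs and Bpifa1, a product of airway secretory cells, was lower. Saa3, which encodes an acute phase serum amyloid A made outside the liver, was at 7.56 and 6.99 in WT lungs and 9.08 and 8.74 in CCSP-p52 lungs. The genotypes were well apart, with a logFC of 1.63 (SE 0.22, 3.10-fold), which stayed between 1.35 and 1.92 without any 1 of the 4 pools. Lcn2, encoding the iron-siderophore-binding lipocalin 2, was at 9.96 and 9.54 in WT and 10.63 and 10.04 in CCSP-p52 lungs (logFC 0.58, SE 0.22). Its second CCSP-p52 pool was close to the first WT pool, and the call was lost without the second WT pool (0.38) or the first CCSP-p52 pool (0.29). Of 20 antimicrobial and mucosal defence genes, these 2 were higher and Bpifa1 was lower, 10 had a positive logFC, and the median was 0.01. Ltf, encoding lactoferrin, was not called at −0.92 (SE 0.55), with 8.61 and 8.02 in WT and 7.18 and 7.61 in CCSP-p52 lungs. In the 4 arrays without LPS alone, Ltf, Reg3g and Bpifb1 were also lower at the cut-off.

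Acod1 makes itaconate from cis-aconitate, chiefly in activated myeloid cells. Its level was 6.72 and 6.59 in WT lungs and 7.82 and 7.62 in CCSP-p52 lungs, a logFC of 1.06 (SE 0.26). It kept its call without each of the 4 pools, between 0.96 and 1.17. Ly6i, a GPI-anchored Ly6 family gene whose close relatives may share probes, was at 7.72 and 6.99 in WT and 8.25 and 8.08 in CCSP-p52 lungs (logFC 0.81, SE 0.28). The WT pools differed almost as much as the genotypes, and the call was kept only without the first WT pool (1.18). It was lost without the second WT pool (0.45), the first CCSP-p52 pool (0.72) or the second CCSP-p52 pool (0.90). Tnfsf9, the ligand of 4-1BB, was dimmer, at 5.98 and 6.14 against 6.80 and 6.91 (logFC 0.80, SE 0.32), and was lost without any 1 of the pools (0.72 to 0.88). Rnase2a, one of the eosinophil-associated ribonucleases, was at 4.97 and 4.88 against 5.51 and 5.82 (logFC 0.74, SE 0.26). It was kept only without the first CCSP-p52 pool (0.90), and was at 0.79, 0.69 and 0.59 without the first WT pool, the second WT pool and the second CCSP-p52 pool.

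Most leukocyte and cytokine lists had no member at the cut-off. None of the 27 chemokine genes, 26 interferon-stimulated genes, 14 neutrophil genes, 12 alveolar macrophage genes or 12 monocyte and interstitial macrophage genes was at the cut-off, with median logFC of 0.07, 0.01, −0.11, 0.05 and −0.03. The chemokine Ccl3 had a logFC of 0.65 (SE 0.33), at 7.38 and 7.02 in WT and 8.04 and 7.65 in CCSP-p52 lungs. It was higher at the cut-off in the 4 arrays alone, and with the replicate number as a block over all 8 arrays 1 of the 27 chemokine genes was higher. The 20 Toll-like receptor and LPS sensing genes had a median of −0.02 and the 11 colony-stimulating factor genes one of 0.01, with none called. Of 21 IL-1 and IL-6 family and SOCS genes 14 had a positive logFC (median 0.05), of 21 TNF ligand and receptor genes only Tnfsf9 was called (median −0.00), and of 15 complement genes 9 were positive (median 0.12), none called. The median was −0.04 for complement genes without the second WT pool, and 0.09 for neutrophil genes without the first WT pool, so that neither kept its sign. The 12 chemokines and survival ligands tied to lymphoid organs and the non-canonical pathway had a median of −0.04 and none at the cut-off. All 12 genes of MHC class I presentation but B2m were positive, yet small (median 0.09, highest 0.18 for Nlrc5), and the 11 of class II had a median of 0.07.

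Chloride and bicarbonate transport held 2 of the larger increases. Cftr, the chloride and bicarbonate channel mutated in cystic fibrosis, was at 8.64 and 8.43 in WT lungs and 9.52 and 9.38 in CCSP-p52 lungs. The pools of each genotype lay close together and the genotypes did not overlap, with a logFC of 0.91 (SE 0.22, 1.88-fold) that stayed between 0.81 and 1.02 without any 1 pool. Slc26a4, encoding the apical anion exchanger pendrin, was at 6.34 and 6.49 against 7.18 and 8.24 (logFC 1.30, SE 0.41). Its second CCSP-p52 pool was far above the first, and without it the logFC was 0.76 and not called, as without the first WT pool (1.22). The other 18 of the 20 ionocyte and ion transport genes were not called, 10 of the 20 were positive and the median was −0.01. Slc12a2, the basolateral chloride loader, had a logFC of 0.30 (SE 0.17) with both CCSP-p52 pools above both WT pools, and Ascl3, a transcription factor of ionocytes, was at 6.50 and 6.38 against 6.49 and 6.68. Of 20 tight junction genes none was called (median −0.01). Cldn4, which encodes a sealing claudin, had the highest value, 0.45 (SE 0.31), and was higher at the cut-off in the 4 arrays alone.

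Gpx2, an epithelial glutathione peroxidase, was at 9.02 and 9.39 in WT lungs and 9.97 and 10.22 in CCSP-p52 lungs (logFC 0.89, SE 0.30). The genotypes were apart, but the call was lost without the first WT pool (0.71) or the second CCSP-p52 pool (0.76). No other gene of the 22 Nrf2 targets and antioxidant genes was called, 11 were positive and the median was 0.00. Akr1b8, an aldo-keto reductase, had a logFC of 0.29 (SE 0.10), and Nqo1, the usual marker of Nrf2 activity, one of −0.14 (SE 0.14).

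Mt2, a metal-binding metallothionein inducible by zinc and glucocorticoid, had the least spread of the larger increases. It was at 9.74 and 9.74 in WT lungs and 10.28 and 10.33 in CCSP-p52 lungs, a logFC of 0.56 (SE 0.09) that stayed between 0.54 and 0.59 without any 1 pool. Mt1, its neighbour and usual partner, was at 9.71 and 9.69 against 9.70 and 9.79 (logFC 0.05, SE 0.10), a smaller value than that of Mt2, though the difference between the genes was not tested. Angptl4, an inhibitor of lipoprotein lipase that fasting and glucocorticoid induce, was at 8.37 and 8.85 against 9.29 and 9.25 (logFC 0.66, SE 0.17). It kept its call without each of the 4 pools, between 0.42 and 0.90. In the additive model neither Angptl4 (0.34) nor Mt2 (0.35) was at the cut-off. The same held for other genes that kept their call without each pool: Acod1 (0.33), Mal (0.33), Cyp2a5 (−0.62), Cyp4a12b (−0.83) and Ybx2 (0.25). Mt2 and Angptl4 belong to a list of 20 glucocorticoid and fasting responsive genes, of which 17 had a positive logFC, against 48.8% of all genes, with a median of 0.24. The mean level of the list was 9.38 and 9.53 in WT and 9.57 and 9.90 in CCSP-p52 lungs. The second CCSP-p52 pool stood highest, and without it the median was 0.07, the lowest of the 4 fits with a pool left out. Fkbp5, a well-known glucocorticoid target, was at 7.97 and 8.07 against 8.26 and 9.08, and the transcription factor Zbtb16 at 9.46 and 9.55 against 9.75 and 10.85. Neither was called, though Fkbp5 was higher in the 4 arrays alone. Of 16 circadian clock genes 10 were positive and none called, with Per1 at 0.58 (SE 0.32) and Per2 at 0.45 (SE 0.25). The hour at which the mice were killed was not given, and the part of stress, feeding or hour in these values was not tested.

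Several increases belonged to no list that moved. Nup62cl, named for its likeness to a nucleoporin, was at 6.74 and 6.58 in WT lungs and 7.93 and 7.77 in CCSP-p52 lungs (logFC 1.19, SE 0.14). Adtrp, which encodes a hydrolase of fatty acid esters linked to coagulation, was at 5.26 and 5.49 against 6.51 and 6.39 (logFC 1.08, SE 0.16). Mal, a raft proteolipid of apical transport in epithelia, was at 8.51 and 8.35 against 9.01 and 8.98 (logFC 0.56, SE 0.12). In these 3 genes the 2 pools of each genotype lay close together, and all stayed at the cut-off without any 1 pool. Adamts9, a secreted metalloproteinase, was at 10.48 and 11.01 against 11.23 and 11.64 (logFC 0.69, SE 0.27), with the pools of a genotype spread almost as widely as the genotypes. It was lost without the first WT pool (0.43) or the second CCSP-p52 pool (0.48). Ctnnd2, a catenin best known in neurons, was at 8.95 and 8.64 against 9.37 and 9.31 (logFC 0.55, SE 0.20), and was kept only without the first WT pool (0.70), with 0.40, 0.52 and 0.58 without the second WT pool, the first CCSP-p52 pool and the second CCSP-p52 pool. Knstrn, a kinetochore protein and so a cell cycle gene outside the excluded list, was at 7.64 and 7.53 against 8.09 and 8.14 (logFC 0.53, SE 0.18) and was lost without any 1 of the pools.

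Further increases, some dim and some above the median level, came from many families. Ptgds, a prostaglandin D synthase, was at 7.24 and 7.41 in WT and 7.92 and 7.99 in CCSP-p52 lungs (logFC 0.63, SE 0.10). It was the only called gene of 21 prostaglandin and leukotriene genes (median −0.01), and Ptgs2 was at 0.72 (SE 0.32) without a call. The imprinted gene Phlda2 (logFC 0.48, SE 0.11), the fatty acid elongase Elovl7 (0.45, SE 0.14) and the germ cell gene Ybx2 (0.56, SE 0.10) were each the only called member of their list. The cell cycle inhibitor Cdkn1a (0.43, SE 0.14) was the only one called of the BCL2 family and p53 target genes. It also belongs to the cell cycle genes set aside here, many of which were higher. Phlda2 and Ybx2 stayed called without each of the 4 pools, whereas Elovl7 was lost without the second pool of either genotype and Cdkn1a was kept only without the second WT pool (0.50). Of 21 glutamate receptor and neural adhesion genes Ctnnd2, Epha7 (0.57, SE 0.21) and Grin2a (0.42, SE 0.11) were called, with 11 positive and a median of 0.01. Epha7 lost its call without any 1 of the pools, and Grin2a without the first WT pool (0.40) or the first CCSP-p52 pool (0.33) and after renewed normalization. Grin2a and 7 olfactory receptor genes among the higher genes are dim on a lung array. Of 990 olfactory receptor genes 7 were higher and 3 lower, where 0.569% of all genes were higher and 0.165% lower. In this family 582 were positive, and the median was 0.03, or −0.03 without the second CCSP-p52 pool.

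Lower in CCSP-p52 lungs were genes of the airway secretory cells, in which the transgene is driven. Bpifa1, the secreted antimicrobial and surface-active protein SPLUNC1, was at 10.30 and 8.54 in WT lungs and 6.86 and 6.12 in CCSP-p52 lungs. The genotypes did not overlap, but the WT pools were far apart. The WT LPS pools, which also enter the shared spread, were further apart, at 6.25 and 9.80. The logFC was −2.93 (0.131-fold), with an SE of 1.08. It was kept only without the second WT pool (−3.81), and was not called without the first WT pool (−2.05), the first CCSP-p52 pool (−3.30) or the second CCSP-p52 pool (−2.57). Cyp2a5, a cytochrome P450 of airway and liver that oxidises coumarin and nicotine, was at 9.58 and 9.97 against 8.47 and 7.80 (logFC −1.64, SE 0.42, 0.320-fold). It kept its call without any 1 pool, between −1.98 and −1.31, although its paralogs may share probes. Lypd2, a GPI-anchored Ly6 domain protein of secretory cells, was at 9.43 and 9.94 against 9.06 and 9.10 (logFC −0.60, SE 0.21). It was kept only without the first WT pool (−0.86), with −0.35, −0.58 and −0.63 without the second WT pool, the first CCSP-p52 pool and the second CCSP-p52 pool.

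These 3 are the called members of 23 club and airway secretory cell genes, of which 2 had a positive logFC. Both CCSP-p52 pools lay below both WT pools for 17 of the 23, where 16.2% of all genes did so, and the median was −0.21. The mean level of the list was 10.52 and 10.62 in WT and 10.09 and 9.96 in CCSP-p52 lungs, and the median stayed between −0.32 and −0.11 without any 1 pool. The genes that define the cell, however, hardly differed. Scgb1a1, which encodes CCSP itself, was at 13.63 and 13.77 in WT and 13.66 and 13.64 in CCSP-p52 lungs (logFC −0.05, SE 0.15). Cyp2f2, the P450 that activates naphthalene, was at 13.95 and 14.07 against 13.91 and 13.92 (logFC −0.09, SE 0.48), and Cbr2 at 13.86 and 13.92 against 13.78 and 13.84. All 3 lie near the top of the scale, whose highest values on these arrays were 14.63 to 14.67, and the effect of saturation was not tested. Other members had larger differences with SEs of similar size. Scgb3a1, a secretoglobin of the larger airways, was at 12.48 and 12.71 against 11.81 and 10.81 (logFC −1.28, SE 0.93), and the C-type lectin Reg3g at 9.25 and 8.14 against 6.72 and 6.23 (−2.22, SE 1.48). Bpifb1, a relative of Bpifa1, was at 8.86 and 8.90 against 8.24 and 7.59 (−0.96, SE 1.02), and the gel-forming mucin Muc5b at 8.77 and 9.82 against 8.59 and 8.57 (−0.71, SE 0.67). None of these 4 was called with the spread shared over all 8 arrays. In the 4 arrays without LPS alone, 6 of the 23 were lower at the cut-off (background 0.42%), the 3 above and Scgb3a1, Reg3g and Bpifb1. In whole lung RNA, fewer cells of a type and less RNA of a gene per cell cannot be told apart.

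**Figure D2:**
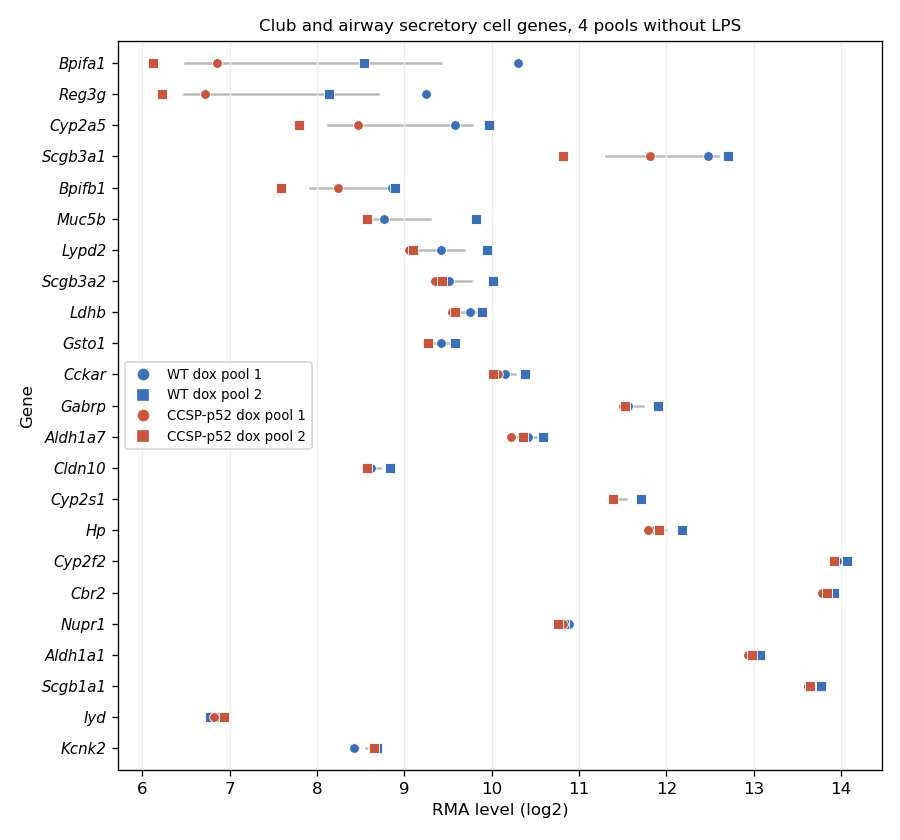
RMA level (log2, x axis) of 23 club and airway secretory cell genes in the 4 pools without LPS, ordered by the difference between genotypes, with circles for pool 1 and squares for pool 2, blue for WT dox and red for CCSP-p52 dox. The 8 genes at the top, from Bpifa1 to Scgb3a2, carry the larger differences, while Scgb1a1, Cyp2f2, Cbr2 and Aldh1a1 have pools that lie nearly on top of each other.

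Ciliated cell genes lay lower by smaller and more even amounts. Of 29, none was called and 2 were positive, both CCSP-p52 pools were below both WT pools for 17, and the median was −0.24. The differences ran from −0.45 for Cfap44 to 0.17 for Ropn1l. The list had a mean level of 8.27 and 8.57 in WT lungs and 8.22 and 8.22 in CCSP-p52 lungs, so that the second WT pool stood above the other 3 and the first WT pool was close to the CCSP-p52 pools. Without the second WT pool the median was −0.07. Tekt4, a tektin of the axoneme, had the lowest unadjusted p, at 8.45 and 8.62 against 8.26 and 8.26 (logFC −0.28, SE 0.15). Foxj1, the master regulator of motile cilia, was at 8.68 and 8.93 against 8.67 and 8.85 (logFC −0.04, SE 0.16). Of the other airway epithelial lists, the 10 goblet cell genes had a median of −0.00, the 10 neuroendocrine genes one of 0.02 and the 13 basal and squamous genes one of 0.05, with none called. Among 25 lung epithelial transcription factors none was called (median 0.01), and Sox2, a factor of the airway lineage, was at 8.42 and 8.58 against 8.15 and 7.98 (−0.43, SE 0.31) and lower in the 4 arrays alone.

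The alveolar epithelial lists had small medians. Of 19 alveolar type II genes none was called and 10 were positive (median 0.04), with the surfactant protein gene Sftpc at 13.98 and 13.96 against 13.95 and 13.87 and Sftpd at 12.09 and 12.00 against 12.24 and 12.35 (logFC 0.25, SE 0.11). The type II members ran from −0.19 for Lpcat1 to 0.43 for Chil1. Their median did not keep its sign, at 0.19 without the first WT pool and −0.15 without the second WT pool. Of 16 alveolar type I genes none was called (median −0.01), with Ager at 13.19 and 13.18 against 13.16 and 13.18. Of 19 capillary endothelial genes 1 was positive and 13 had both CCSP-p52 pools below both WT pools, by small amounts (median −0.08), the largest being Aplnr, a receptor for apelin, at −0.30 (SE 0.17). Arterial and venous, fibroblast, smooth muscle and lymphatic lists had medians of −0.00, −0.05, −0.12 and −0.15 with none called, and all 6 mesothelial genes were positive (median 0.18) with none called. The mesothelial median was 0.04 without the first CCSP-p52 pool, and the lymphatic one −0.06 without the second WT pool.

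**Figure D3:**
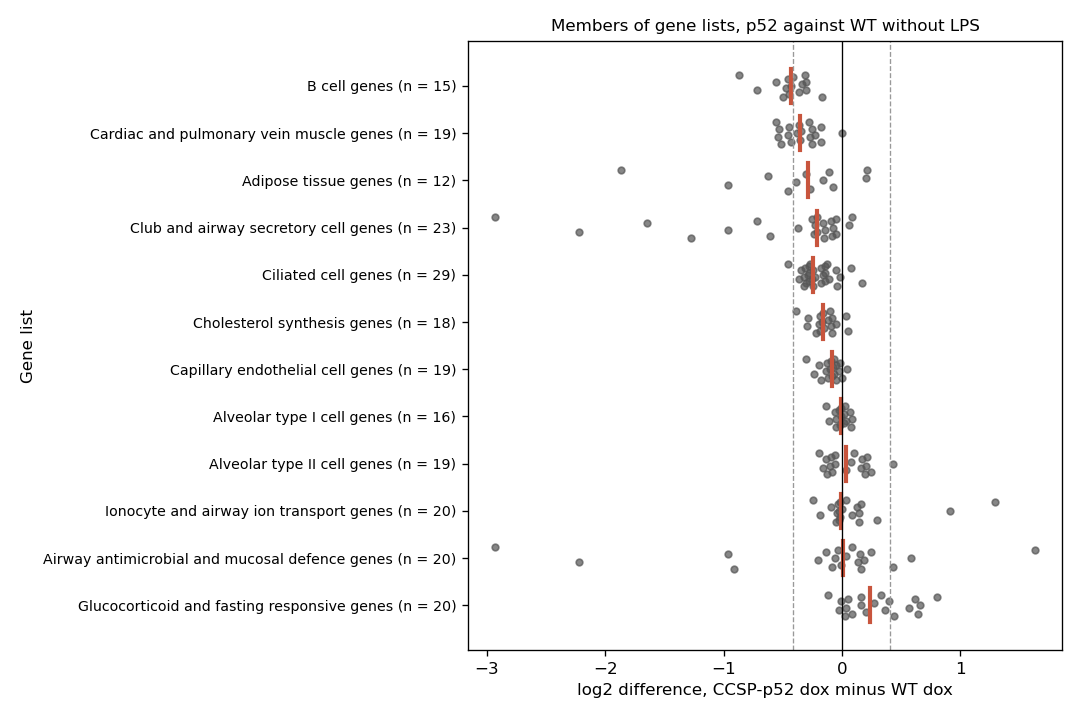
Difference between CCSP-p52 dox and WT dox (log2, x axis) for each member (grey points) of 12 gene lists, with the median of each list as a red bar and dashed lines at the logFC cut-off of 0.41 either way. B cell and cardiac muscle genes lie wholly at or below 0, club cell genes have a tail that reaches −2.93, alveolar genes centre on 0, and glucocorticoid and fasting responsive genes lie mostly to the right.

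Lists of B cell, cardiac muscle and fat genes had the lowest medians of the cell type and tissue lists. All 15 B cell genes had a negative logFC, with a median of −0.43, and Pax5 and Blk were called. Pax5, the transcription factor that holds B cell identity, was at 8.93 and 8.56 in WT lungs and 8.34 and 8.20 in CCSP-p52 lungs (logFC −0.47, SE 0.17), and was not called without the first WT pool (−0.29) or the second CCSP-p52 pool (−0.40). Blk, a B cell kinase, had a logFC of −0.43 (SE 0.17) and was lost without the same pools (−0.30 and −0.29) and when the arrays were normalized again or centred on their medians (both −0.41). The low-affinity IgE receptor Fcer2a was at 8.95 and 8.35 against 8.22 and 7.32 (−0.87, SE 0.53). The mean level of the list was 8.72 and 8.24 in WT and 8.25 and 7.82 in CCSP-p52 lungs. The second WT pool and the first CCSP-p52 pool were alike, and in each genotype the first pool was the higher. The median was −0.25 without the first WT pool and −0.28 without the second CCSP-p52 pool. In the 4 arrays alone 7 of the 15 were lower at the cut-off, and with the replicate number as a block over all 8 arrays 9 were. T cell genes (18, median −0.06), NK and cytotoxic genes (12, median 0.06) and plasma cell genes (7, median 0.06) had no called member. The T cell and NK medians did not keep their sign. They were 0.19 and 0.33 without the first WT pool, and both −0.31 without the second WT pool. Of the T cell genes, Ccr7 (−0.46) was lower at the cut-off in the 4 arrays alone, and 1 was lower with the block.

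Cardiac muscle genes, which the mouse lung expresses in the walls of its pulmonary veins and which also enter with attached heart tissue, were all 19 negative, with a median of −0.35. Kcnj3, an atrial potassium channel, was the called member, at 7.64 and 8.09 against 7.10 and 7.55 (logFC −0.54, SE 0.21), and was lost without the second WT pool (−0.32) or the first CCSP-p52 pool (−0.31). Levels of the list were 9.03 and 9.40 in WT and 8.69 and 9.06 in CCSP-p52 lungs, with the second pool the higher in both genotypes, and the first WT pool and the second CCSP-p52 pool nearly equal. The median was −0.12 without the second WT pool and −0.15 without the first CCSP-p52 pool. Of 12 adipose genes 2 were positive, 10 had both CCSP-p52 pools below both WT pools, and the median was −0.29. Adipoq, the fat cell hormone adiponectin, was at 7.26 and 6.73 against 6.22 and 5.85 (logFC −0.96, SE 0.40), and was kept only without the second WT pool (−1.23), with −0.69, −1.15 and −0.77 without the first WT pool, the first CCSP-p52 pool and the second CCSP-p52 pool. Car3, a carbonic anhydrase abundant in fat and muscle, was at 11.38 and 10.63 against 10.46 and 7.82 without a call. Skeletal muscle genes ran the other way without a call (12 genes, median 0.10). The part of dissection or of cell numbers in these lists was not tested.

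The paralogous P450 genes Cyp4a12b and Cyp4a12a, omega-hydroxylases of fatty acids that are higher in males in liver and kidney, were both lower. Cyp4a12b was at 7.41 and 7.28 in WT and 5.74 and 5.26 in CCSP-p52 lungs (logFC −1.84, SE 0.19, 0.279-fold). It had the smallest p of all genes and stayed between −2.08 and −1.60 without any 1 pool. Cyp4a12a was at 7.15 and 5.52 against 4.94 and 4.91 (logFC −1.41, SE 0.45), so that only its first WT pool stood out, and the logFC was −0.59 without that pool and −2.23 without the second WT pool, both called, while the call was lost without the first CCSP-p52 pool (−1.42) or the second CCSP-p52 pool (−1.40). The pair is nearly identical in sequence, and whether the probe sets separate them was not tested. The Y-linked genes Kdm5d, Eif2s3y and Uty had logFC of −0.09, −0.04 and −0.01, and their mean was 8.68 and 8.73 in WT and 8.80 and 8.52 in CCSP-p52 lungs. Of 23 genes of the P450, FMO and conjugation list only Cyp2a5 was called (5 positive, median −0.06). Dim members of the Cyp2c cluster went opposite ways, Cyp2c67 at −0.49 (SE 0.16) and Cyp2c39 at 0.42 (SE 0.13).

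Hamp, the iron hormone hepcidin, was at 8.20 and 8.39 in WT and 7.12 and 7.40 in CCSP-p52 lungs (logFC −1.03, SE 0.35). Its genotypes were well apart, though the call was kept only without the second CCSP-p52 pool (−1.18). Without the first WT pool, the second WT pool and the first CCSP-p52 pool it was −1.13, −0.94 and −0.89. Ccn1, a matricellular protein induced by YAP and by serum, was at 11.79 and 11.82 against 11.18 and 10.88 (logFC −0.77, SE 0.31). It was lost without any 1 pool (−0.92 to −0.62), and the early response genes Egr1 (logFC −0.94, SE 0.35) and Fos (−0.81, SE 0.30) were lower as well, within a list of 33 immediate early genes of which 15 were positive, 1 was higher, 4 were lower and the median was −0.01. Znrf3, which clears Wnt receptors from the cell surface, was at 9.81 and 9.53 against 9.12 and 8.92 (logFC −0.65, SE 0.19), and was lost without the first WT pool (−0.51) or the second CCSP-p52 pool (−0.55). It was the only called gene of 16 Wnt feedback genes, of which 9 were positive (median 0.02). Also lower were Esm1, a proteoglycan of endothelial tip cells, at 8.06 and 8.29 against 7.59 and 7.51 (logFC −0.62, SE 0.12), the Notch target Hey2 (−0.49, SE 0.16) and the histone methyltransferase relative Prdm8 (−0.62, SE 0.16).

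Metabolic and housekeeping groups shifted little. Of 18 cholesterol synthesis genes 2 were positive and 7 had both CCSP-p52 pools below both WT pools, with a median of −0.16 and none called. The median was −0.03 without the first WT pool and −0.03 without the second CCSP-p52 pool. Insig1, a sterol-responsive brake on the pathway, was at 11.20 and 11.05 against 10.79 and 10.68 (logFC −0.39, SE 0.14). The list had levels of 9.58 and 9.38 in WT and 9.41 and 9.25 in CCSP-p52 lungs, which overlap. Of 17 ER folding stress genes 16 were positive and 7 had both CCSP-p52 pools above both WT pools, but none was called and the median was 0.07. Ribosomal protein (31), proteasome (29) and respiratory chain (30) genes had medians of −0.02, −0.01 and −0.03. Of 57 small nucleolar RNA genes 8 were positive (median −0.13, and −0.03 without the second WT pool), and Snord33 was called at 8.32 and 8.53 against 7.86 and 8.01 (logFC −0.49, SE 0.14). Of the 68 lists, 50 had no member at the cut-off and 55 had a median within 0.1 of 0.

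Few of these differences were seen again in lungs taken 48 hours after LPS. At the same cut-off 183 genes (0.972%) were higher and 205 (1.09%) lower in CCSP-p52 LPS than in WT LPS lungs. Of the 107 genes higher without LPS, 50 had a positive logFC with LPS and 6 were called, with a median of 0.57 without LPS and −0.04 with it. Of the 31 lower genes 13 had a negative logFC and none was called. Of all genes, 50.9% were positive and 49.1% negative with LPS. Of the 28 genes singled out, 17 kept their sign and 3 were called the same way: Nup62cl (logFC 1.19 without LPS and 1.26 with it), Gpx2 (0.89 and 0.85) and Cftr (0.91 and 0.59). Of the called genes named only as list members, Phlda2 was called in both states (0.48 and 0.69). Ptgds (0.63 and 0.39), Cdkn1a, Kcnj3 and Blk kept their sign, whereas Ybx2 (0.56 and −0.06), Elovl7 (0.45 and −0.16), Epha7 and Grin2a did not. Saa3 was 1.63 without LPS and −0.07 with it, a difference of −1.71 (SE 0.31). Adtrp was 1.08 and −0.04 (difference −1.12, SE 0.22), Cyp4a12b −1.84 and 0.18 (difference 2.02, SE 0.26) and Cyp2a5 −1.64 and 0.40 (difference 2.05, SE 0.59). In WT LPS lungs Saa3 was at 13.25 and 13.235, where the highest values of the LPS arrays were 14.41 to 14.48. Cyp4a12b was at 4.99 and 5.01 there, below its 5.74 and 5.26 in CCSP-p52 dox lungs. Cyp2a5 was at 7.02 and 7.67 in WT LPS lungs, and Adtrp at 6.52 and 6.88. The effect of saturation or of a low level on these values was not tested. The adjusted p of the difference was 0.918 or higher for each of the 28 in limma. The club cell list had a median of 0.19 with LPS, the ciliated list 0.15 and the glucocorticoid list 0.23. Of the LPS pools, only the second CCSP-p52 pool was left out for these values. The WT LPS pools were also apart in mean level, at 9.22 and 10.39 for the club list and 7.48 and 8.10 for the ciliated list. Those of CCSP-p52 LPS lungs were 9.85 and 10.25, and 7.72 and 8.13. Without the second CCSP-p52 LPS pool the 3 medians were −0.18, −0.05 and −0.11. Then 75 of the 107 higher genes were positive (median 0.16), 18 of the 31 lower genes were negative (median −0.06), and 20 of the 28 named genes kept their sign. Without that pool the LPS values were 1.08 for Nup62cl and 0.82 for Gpx2 but 0.23 for Cftr, and Saa3 was at 0.11, Adtrp at −0.15, Cyp4a12b at −0.01 and Cyp2a5 at −0.18. In the test of the difference itself, 932 genes (4.95%) had an unadjusted p under 0.05 and none passed adjustment in limma. Without the first WT LPS pool, 78 genes passed, and none of these was at the cut-off without LPS, while without the second CCSP-p52 LPS pool none passed. These differences between the LPS states are therefore values without support after adjustment.

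**Figure D4:**
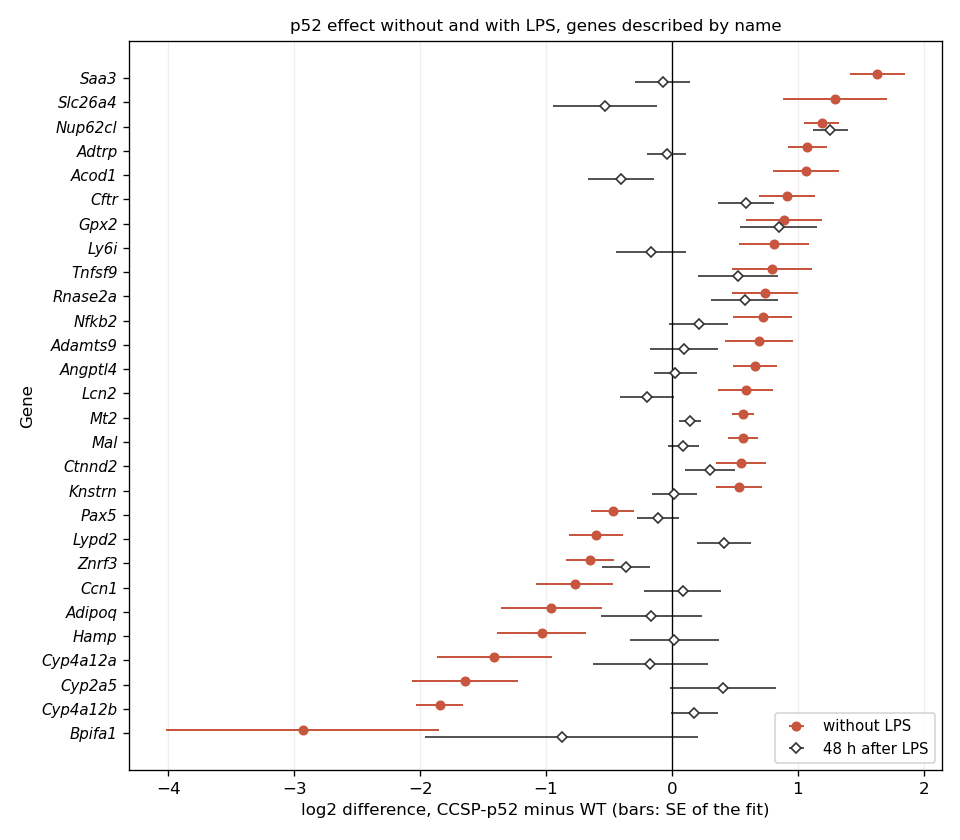
Difference between CCSP-p52 and WT lungs (log2, x axis) for the 28 genes singled out, without LPS (filled circles) and 48 h after LPS (open diamonds), with bars of 1 SE of the fit. Nup62cl and Gpx2 lie at nearly the same place in both states, whereas Saa3, Adtrp, Cyp2a5 and Cyp4a12b lie far from 0 only without LPS.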

How the data were processed

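The authors hybridized whole lung RNA, pooled from 3 mice per sample, to Affymetrix Mouse Gene 1.0 ST arrays and deposited log2 levels made by RMA (background correction, quantile normalization and probe summary). Their processing notes list limma 3.20.8 besides RMA. Array scans were not reprocessed here, so background correction was not varied, and the number of arrays limits the precision. Of 35556 deposited rows, 21218 have 1 gene symbol in the platform's probe table, 1881 have several and 12457 have none, and only the first were used, with the row of highest mean over 8 arrays for each of 18820 genes. Whether that table is of the 1.0 version of the array was not settled. Names and promoters came from RefSeq tables (GRCm38.p6).

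A 4-group linear model over all 8 arrays was fitted with limma 3.58.1 in R 4.3.3, with empirical Bayes moderation and Benjamini-Hochberg adjustment over all genes. The study's methods fit p52 and LPS as additive factors, which is an alternative here because the lungs without LPS are the question. p-values measure only the spread between pools. The members, lists and rules were chosen with earlier results of these data known, and lists are given as counts and medians, with no set test. Of the listed genes, 113 were not analysed here. Named were Nfkb2, up to 12 genes each way with the largest logFC at the cut-off, non-overlapping pools and a mean above the median of all genes (8.12), up to 5 each way at or below it, up to 5 members of each list by p, any list member called, and defining markers. Genes in the excluded lists and histones were left out of this ranking. Egr1, Fos, Esm1, Hey2, Prdm8, Snord33, Cyp2c39, Cyp2c67, and list members given for an extreme value or a call in the 4 arrays alone, were named after their values were seen. Alternatives varied the rows, the model, the moderation, the weights, the normalization, the thresholds and the pools left out. The steps were tested on simulated arrays.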

Additional observations from a re-analysis of the deposited data

How the results depend on the processing

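All values here concern the 18820 genes of lungs without LPS, where 107 were higher and 31 lower. The replicate numbers of the labels are only 2 and no source says what pools of 1 number share, so they were not taken as pairs. The pool differences correlated at 0.13 to 0.36 over the 6 pairs of groups, and with the replicate block 128 were higher and 45 lower over 8 arrays, and 156 and 94 over the 4 arrays without LPS alone. Of 28 named genes 26 stayed called with the block over 8 arrays, Ccn1 and Adipoq being lost. In the 4 arrays alone all 28 were called, with 150 higher and 79 lower. That fit changes the spread, its degrees of freedom and its moderation together, and their parts were not tested. With p52 and LPS as additive factors, 43 were higher and 9 lower, 11 of the 28 named genes stayed called, and 1 gene, Nup62cl (1.22), passed adjustment. Array weights gave 145 higher, 52 lower and 2 passing adjustment. Genes above the median level gave 34 and 9, all rows, named or not, 225 and 212, non-overlapping pools in place of p 155 and 88, a logFC of 1 gave 8 and 5, and p of at most 0.01 gave 38 and 8. With 1 of the 8 pools left out, 64 to 144 were higher, 38 to 68 lower and 0 passed adjustment, the 64 without CCSP-p52 dox pool 2 and the 68 without WT dox pool 2. For the difference between the LPS states this gave 0 to 78. The other alternatives, by probe set, moderation, centring or renewed normalization, left both counts within 1.5 times. No named gene that was called changed sign under any alternative.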
